A study of Rattus norvegicus with 9 samples.

Results

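Gene expression in the ipsilateral L4-6 dorsal root ganglia (DRGs) of rats with chronic post-ischemia pain (CPIP) was compared with that of Sham rats. The comparison used 6 of the 9 RNA-Seq libraries of the study, 3 CPIP and 3 Sham, and all genes with a mean of at least 0.1 FPKM over the 9 libraries, which left 17187 of the 20413 genes listed and no test for the other 3226. FPKM scales the fragments of a gene by the length of its transcript and by the size of the library, so levels can be compared between genes, but it does not fix the total of a library. At the edge of the filter, Acp7, Cela3b and Cyp17a1 had a mean of exactly 0.1 and were tested, whereas Soat2 had 0.0989 and was not. All animals were male Sprague Dawley rats. Under general anesthesia, CPIP rats had a tight O-ring around the ankle, which was later cut for reperfusion. In the Sham group, labelled Con, the ring had been cut open beforehand, so that anesthesia was shared with CPIP but ischemia was not. The right DRGs were taken at day 10, and the methods name 3 rats for each group. The remaining 3 libraries, from CPIP rats treated with electroacupuncture (CPIP+EA), entered only the filter. The model is made by ischemia and reperfusion of the paw, without a cut or tied nerve.

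DRGs contain the somata of those sensory neurons which send touch, temperature and pain signals from the limb to the spinal cord, together with satellite glia, Schwann cells, resident macrophages and vessels. After damage to their peripheral axons, DRG neurons are known to start a program led by transcription factors such as ATF3, c-Jun and SOX11, which brings on neuropeptides that are scarce in the intact ganglion, growth cone proteins, and secreted signals such as CSF1. Nociceptor peptides and ion channels are often known to fall in the same neurons. The genes of that program, of the channels and receptors of sensory neurons, and of ganglion cell types were described one group after another. Their lists were chosen with earlier results of these data known.

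Total FPKM per library ranged from 445647 to 470875, with 18279 to 18415 genes above 0. FPKM carry no read count per gene, so no counting error was given for a value, and precision rests on 3 libraries per group. P-values measure the spread between these libraries. In the whole ganglion, fewer cells of a type and less RNA per cell cannot be told apart. Log2 fold changes are given as CPIP minus Sham of log2(FPKM + 0.5), a scale on which low genes change by less than their FPKM do and by an amount that depends on the added 0.5. With limma and Benjamini-Hochberg adjustment over all genes tested, 42 genes (0.244% of those tested) had an adjusted p under 0.01 and differed at least 1.5-fold, the threshold of the study. Of these, 41 were higher (0.239%) and 1 was lower (0.00582%) in CPIP. The study applied this threshold to Q-values of its own comparison and reported far more genes in each direction. The 2 sets of counts come from unlike tests. At an adjusted p under 0.05, here termed called, there were 113 genes (0.657%), 95 higher (0.553%) and 18 lower (0.105%), and 96 of them differed at least 1.5-fold. The CPIP and Sham libraries did not overlap for any of the 113, against 15.9% of all genes tested, 7.98% higher and 7.9% lower. Before adjustment, a p under 0.05 was reached by 943 genes higher and 842 genes lower in CPIP, 10.4% in all. The median log2 fold change was 1.13 for the genes called higher, -0.62 for those called lower and -0.0064 for all genes tested, of which 47.9% had a log2 fold change above 0. The calls depended on the number of libraries. With each library left out in turn, 39 of the 113 genes stayed called every time, 38 of them higher, and 32 lost their call every time. The total was lowest, at 45, without Sham replicate 2 and highest, at 60, without Sham replicate 3 or CPIP replicate 2.

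**Figure D1:**
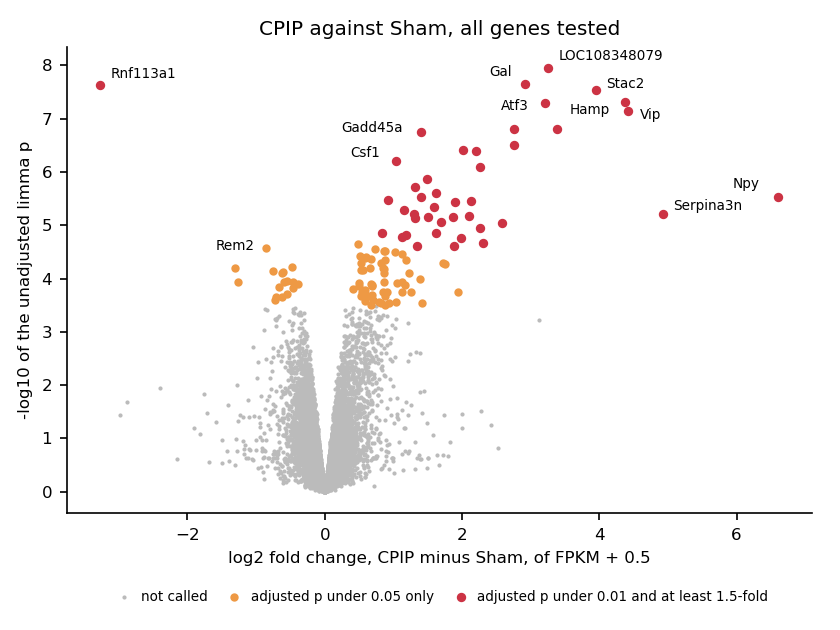
Log2 fold change between CPIP and Sham (x axis) against -log10 of the unadjusted limma p (y axis) for each of the 17187 genes tested. Most called genes lie on the right, with Npy at 6.61 farthest out, and Rnf113a1, which was listed at 0 in all CPIP libraries, alone at the upper left at a position set by the pseudocount.

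Neuropeptides gave the largest change. Npy, which encodes neuropeptide Y, a transmitter of sympathetic neurons that intact sensory neurons hardly make, was at 3.92, 7.09 and 1.14 FPKM in the Sham libraries and at 351, 366 and 395 in the CPIP libraries. Its log2 fold change was 6.61 (SE 0.49) with a limma adjusted p of 0.00258, and the spread came from the Sham libraries rather than from CPIP. Vip, which encodes vasoactive intestinal peptide, had 0.24, 0.12 and 0.08 FPKM in Sham and 13.0, 10.4 and 17 in CPIP (4.41 on the log2 scale, SE 0.19, limma adjusted p 0.000174). Gal, which encodes galanin, an inhibitory peptide of injured sensory neurons, had 4.66, 5.32 and 5.40 in Sham and 37.0, 41.0 and 48.1 in CPIP (2.91, SE 0.11, limma adjusted p 0.000123). For each of these peptides every CPIP library lay far above every Sham library. Adcyap1, which encodes PACAP, a peptide related to VIP, rose less, from 24.5, 23.1 and 21.1 FPKM to 44.2, 41.6 and 45.5 (0.92, SE 0.07, limma adjusted p 0.00271). Nts, neurotensin, went from 0.70, 0.94 and 0.80 to 2.98, 2.22 and 1.97, with a limma adjusted p of 0.0327 that lay between 0.0665 and 0.120 without any 1 of the 6 libraries. Of the 8 peptides listed as injury-induced, 5 were called higher, against 0.553% of all genes tested. All 8 had a positive log2 fold change, with a median of 1.02. Their summed level was between 37.0 and 46.3 FPKM in the Sham libraries and between 464 and 519 in the CPIP libraries.

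In a list of 9 tested peptides of nociceptors and itch neurons, Ucn was the only one called, and the median log2 fold change was -0.02. The Sham mean of Ucn, 0.0733 FPKM, was under the filter, so that Ucn was tested only through its CPIP and CPIP+EA libraries. Ucn, which encodes urocortin, a peptide of the CRH family, was at 0.11, 0.11 and 0 FPKM in Sham and at 1.54, 1.89 and 2.55 in CPIP (2.11, SE 0.18, limma adjusted p 0.00402). Calca, the gene of the pain and vasodilator peptide CGRP, was at 731, 622 and 872 in Sham and 761, 563 and 763 in CPIP, values that overlapped. Tac1, the gene of substance P, had 237, 221 and 255 against 218, 177 and 212 (-0.23, limma adjusted p 0.473, not called). Among 9 neuropeptide receptors, Cckbr alone was called. Cckbr, a receptor of cholecystokinin and gastrin, rose from 0.39, 0.08 and 0.37 FPKM to 2.57, 3.51 and 3.58 (2.27, SE 0.21, limma adjusted p 0.0056). The presynaptic receptor gene Npy2r was at 5.01, 3.07 and 3.06 in Sham and 6.89, 6.27 and 7.31 in CPIP, which did not overlap but had a limma adjusted p of 0.136, or 0.0293 without Sham replicate 1.

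**Figure D2:**
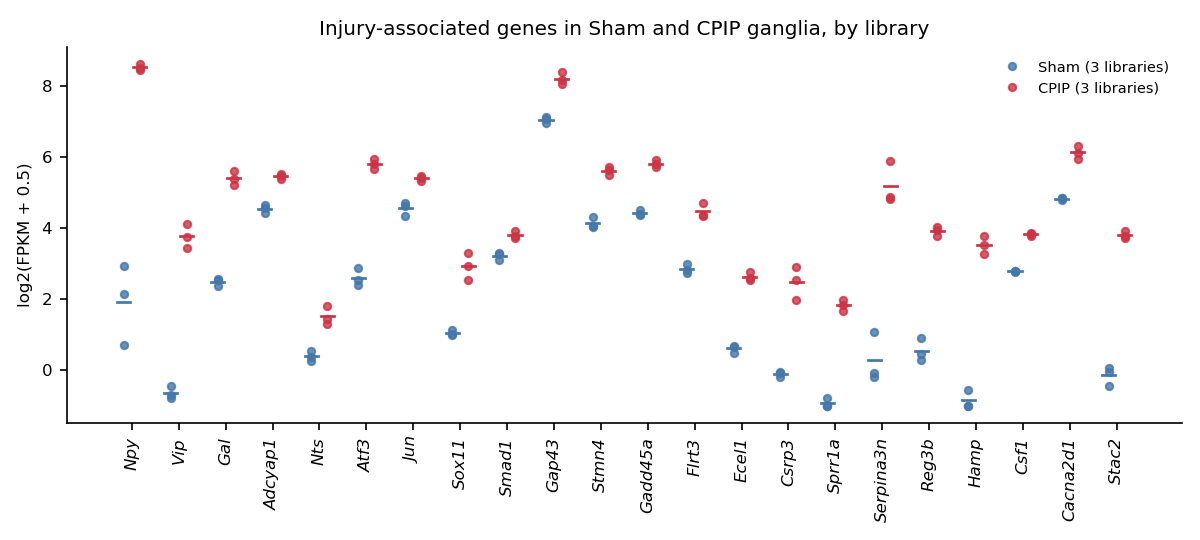
Level of injury-associated genes as log2(FPKM + 0.5) (y axis) in each Sham and CPIP library, with a bar at the mean of each group of 3. Only genes called higher were drawn, so that the CPIP points lie above the Sham points in each by this choice. The difference is 6.61 for Npy and 0.59 for Smad1.

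Of the 12 axon injury transcription factors, 4 were called higher, against 0.553% of all genes tested. Of the 12, 9 had a positive log2 fold change, with a median of 0.18. Atf3, a stress-induced factor that is the usual sign of axon damage in DRG neurons, was at 4.77, 6.86 and 5.37 FPKM in Sham and at 55.9, 50.5 and 61.6 in CPIP. Its log2 fold change was 3.21 (SE 0.13, limma adjusted p 0.000149), and the lowest CPIP library was far above the highest Sham library. Sox11, a factor of growing neurons, had 1.69, 1.49 and 1.52 in Sham and 7.22, 5.28 and 9.46 in CPIP (1.89, SE 0.19, limma adjusted p 0.00984). Jun, the partner of ATF3 in AP-1 dimers, had 25.8, 24.0 and 19.8 against 42.4, 39.6 and 43.8 (0.85, limma adjusted p 0.0172). The BMP effector Smad1 had 9.12, 9.39 and 8.13 against 12.7, 13.3 and 14.8 (0.59, limma adjusted p 0.0425). The groups did not overlap for any of the 4. With 1 library left out, Atf3 kept its call each time, and the list held 1 or 2 calls. The limma adjusted p of Sox11 was between 0.0516 and 0.0605 without CPIP replicate 1 or any 1 Sham library. That of Jun was between 0.0661 and 0.0907 without Sham replicate 2 or any 1 CPIP library, and that of Smad1 was at least 0.107 without any library. Stat3, the factor downstream of IL-6 family cytokines, had 58.1, 54.2 and 50.1 in Sham and 58.8, 58.5 and 63.2 in CPIP (0.15, limma adjusted p 0.521).

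Csf1, which encodes the colony stimulating factor through which injured sensory neurons are known to signal to microglia and macrophages, was higher in every CPIP library, with little spread. It was at 6.41, 6.46 and 6.35 FPKM in Sham and at 13.3, 14.04 and 13.7 in CPIP (1.04, SE 0.06, limma adjusted p 0.00078). The other ligand of the same receptor, Il34, was at 25.8, 25.6 and 26.3 in Sham and 25.7, 27.3 and 25.9 in CPIP (0.02, limma adjusted p 0.946). The receptor Csf1r had 16.0, 17.1 and 13.4 against 14.2, 18.6 and 18.4, which overlapped. Csf1 was the only call among the 7 tested genes of this axis.

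Several effectors of axon growth rose. Of 18 genes, 8 were called, all higher, against 0.553% of all genes tested. Of the 18, 17 had a positive log2 fold change, and the median was 0.71. Sprr1a, a small proline-rich protein of skin that regrowing axons are known to carry, was listed at 0, 0.08 and 0 FPKM in Sham and at 3.46, 2.65 and 3.10 in CPIP (2.76, SE 0.13, limma adjusted p 0.000303). Gap43, the growth cone protein, had 136, 125 and 139 in Sham and 287, 270 and 336 in CPIP (1.15, SE 0.09, limma adjusted p 0.00361). Gadd45a, a DNA damage and stress response gene, had 20.1, 22.1 and 20.6 against 55.9, 52.3 and 60.1 (1.40, SE 0.07, limma adjusted p 0.000305). No library of one group reached the other group in any of these genes. Ecel1, a neuronal membrane peptidase, rose by 2.02 and Stmn4, a tubulin-binding stathmin, by 1.49 on the log2 scale, with limma adjusted p of 0.000533 and 0.00146. Flrt3, a cell adhesion protein of axons, rose by 1.63 (limma adjusted p 0.00238). Csrp3, a LIM protein of striated muscle, went from 0.44, 0.46 and 0.37 FPKM to 5.28, 3.43 and 7.02 (2.59, SE 0.23, limma adjusted p 0.00467). The summed skeletal muscle markers were at 35.5, 169 and 8.47 FPKM in the same CPIP libraries, and their part in the result was not tested. Hspb1, a small heat shock protein, and Stmn2, the abundant neuronal stathmin, had log2 fold changes of 0.68 and 0.38 and were not called (limma adjusted p 0.102 and 0.163). The summed level of the list was between 1458 and 1566 FPKM in Sham and between 2134 and 2414 in CPIP.

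Large changes were also found in 3 of 11 tested acute-phase and STAT3 target genes. Acute-phase proteins are secreted by the liver in inflammation, and STAT3 is known to drive them. Serpina3n, an inhibitor of serine proteases, was at 1.61, 0.38 and 0.45 FPKM in Sham and at 28.8, 59.3 and 27.8 in CPIP (4.93, SE 0.41, limma adjusted p 0.00398). Hamp, hepcidin, the peptide hormone that limits iron export from cells, was listed at 0, 0.18 and 0 in Sham and at 9.21, 13.2 and 11.1 in CPIP (4.38, SE 0.18, limma adjusted p 0.000149). Reg3b, a secreted C-type lectin, had 1.36, 0.88 and 0.73 against 16.0, 13.4 and 14.9 (3.38, SE 0.16, limma adjusted p 0.000303). Serpina3n was highest in CPIP replicate 2, and without that library its log2 fold change was 4.58 (limma adjusted p 0.0160). CPIP replicate 2 also had the highest summed macrophage, neutrophil and skeletal muscle markers of the 6 libraries, at 836, 304 and 169 FPKM, whose part in the result was not tested. Serpina3n, Hamp and Reg3b were the only calls among the 11 genes, of which 10 had a positive log2 fold change (median 0.57). The list also holds the receptors Il1r1 and Il4r and the enzyme Ch25h, which are not secreted acute-phase proteins. The remaining gene, A2m, was at 19.2, 15.9 and 15.2 in Sham and 13.3, 14.9 and 13 in CPIP, which did not overlap (-0.28, limma adjusted p 0.411). Timp1, an inhibitor of metalloproteinases, had 57.0, 67.0 and 60.5 in Sham and 87.7, 86.0 and 77.6 in CPIP (0.44, limma adjusted p 0.0752). The IL-6 family and its receptors and kinases had 0 calls in limma among 17 genes, with 3 higher and 0 lower at an unadjusted p under 0.05 and a median of 0.07.

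The promoters of 4 of the genes with the largest changes are shown because their windows held letters known from AP-1 or STAT sites, the factors named above. Each window holds 300 bases around the annotated gene start, from the RefSeq promoter table of the build GRCr8, 5′ to 3′ on the strand of the gene, with the matches in capitals. Sprr1a lies at chr2:180752576-180752875 (minus strand), Reg3b at chr4:112419526-112419825 (plus), Hamp at chr1:95300222-95300521 (minus) and Serpina3n at chr6:129088142-129088441 (plus).
Sprr1a: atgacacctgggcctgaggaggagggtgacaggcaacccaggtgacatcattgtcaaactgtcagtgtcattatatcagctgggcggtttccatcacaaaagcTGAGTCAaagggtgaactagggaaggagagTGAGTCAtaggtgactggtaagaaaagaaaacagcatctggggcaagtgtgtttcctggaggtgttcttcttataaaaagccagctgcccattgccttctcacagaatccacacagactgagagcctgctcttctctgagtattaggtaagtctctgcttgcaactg
Reg3b: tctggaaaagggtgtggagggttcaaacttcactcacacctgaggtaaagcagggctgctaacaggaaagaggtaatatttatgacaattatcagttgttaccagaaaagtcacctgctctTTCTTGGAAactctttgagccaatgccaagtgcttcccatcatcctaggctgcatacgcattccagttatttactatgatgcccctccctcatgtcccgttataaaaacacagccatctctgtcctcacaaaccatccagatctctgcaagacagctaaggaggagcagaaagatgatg
Hamp: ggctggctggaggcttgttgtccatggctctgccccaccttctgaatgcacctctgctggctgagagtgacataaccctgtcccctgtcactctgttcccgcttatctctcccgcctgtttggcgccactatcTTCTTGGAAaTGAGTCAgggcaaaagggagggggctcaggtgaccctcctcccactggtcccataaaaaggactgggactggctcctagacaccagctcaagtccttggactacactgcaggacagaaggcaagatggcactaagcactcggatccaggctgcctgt
Serpina3n: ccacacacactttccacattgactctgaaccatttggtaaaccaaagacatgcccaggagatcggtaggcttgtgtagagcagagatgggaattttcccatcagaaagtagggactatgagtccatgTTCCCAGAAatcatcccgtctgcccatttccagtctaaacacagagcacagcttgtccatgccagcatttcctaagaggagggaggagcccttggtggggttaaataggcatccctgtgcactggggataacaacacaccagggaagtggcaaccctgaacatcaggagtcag
Sprr1a held the AP-1 letters TGANTCA at 147 and 117 bases before the start, and Hamp held them at 107 bases before the start beside the STAT letters TTCNNNGAA at 117. Reg3b and Serpina3n held the STAT letters at 129 and 123 bases before the start. The windows of Npy, Vip, Gal, Gadd45a and Ecel1 held neither of these nor the CRE letters TGACGTCA. Both strands were searched, and no match in the windows shown overlapped another. The AP-1 letters were in 20.5% of the promoters of genes called higher (15 of 73 with a window), in 33.3% of those called lower (5 of 15), in 5.37% of the 13061 genes tested with a window and in 7.33% of all 27457. The STAT letters were in 9.59% of the genes called higher (7 of 73), in 0 of 15 called lower, in 6.98% of the genes tested and in 8.68% of all. The CRE letters were in 5.48% of the genes called higher (4 of 73), in 0 of 15 called lower, in 2.9% of the genes tested and in 1.91% of all. A match describes the sequence and is neither a site nor a cause.

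In the list of calcium channels and Stac adaptors, an adaptor and a channel subunit were called. Stac2, an adaptor that binds voltage-gated calcium channels, was at 0.46, 0.55 and 0.24 FPKM in Sham and at 12.6, 13.2 and 14.7 in CPIP (3.95, SE 0.15, limma adjusted p 0.000123). Cacna2d1, the alpha2delta-1 subunit to which gabapentin binds, was at 27.0, 28.5 and 28.1 in Sham and at 69.6, 61.8 and 79.7 in CPIP (1.31, SE 0.09, limma adjusted p 0.00196). Both stood clear of Sham in every CPIP library. They were the only calls among 17 calcium channel genes and adaptors, whose median was 0.01. The related adaptor Stac had 34.4, 26.6 and 26.9 against 32.0, 28.1 and 31.0, and the subunit Cacna2d3 had 26.3, 25.9 and 21.8 against 20.5, 19.6 and 20.1 (-0.29, limma adjusted p 0.247). Rem2, a small GTPase known to inhibit voltage-gated calcium channels, was among the genes called lower, at 7.07, 7.27 and 7.96 in Sham and 4.02, 3.56 and 4.01 in CPIP (-0.86, SE 0.09, limma adjusted p 0.0104). Its limma adjusted p was 0.0617 without Sham replicate 2 and 0.053 without Sham replicate 3.

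The lists of sodium and potassium channel genes had 0 calls in limma, which does not cover partners of these channels outside the lists. Of 13 sodium channel genes, 11 had a negative log2 fold change, with a median of -0.12 and with 1 higher and 2 lower at an unadjusted p under 0.05. The nociceptor channel gene Scn10a was at 71.5, 70.3 and 62.3 FPKM in Sham and at 54.4, 57.8 and 54.4 in CPIP, which did not overlap but had a limma adjusted p of 0.158 (-0.29). Of 35 potassium channel genes, 30 had a negative log2 fold change, with a median of -0.10, and 9 were lower and 1 higher at an unadjusted p under 0.05, against 4.9% lower and 5.49% higher of all genes. Kcns3, a modulatory subunit, had 40.9, 40.0 and 36.9 in Sham and 26.3, 20.7 and 27.4 in CPIP (-0.66, SE 0.11, limma adjusted p 0.0619), and Kcna2, a channel of axons, had 93.9, 96.3 and 88.0 against 75.3, 70.7 and 73.1 (-0.34, limma adjusted p 0.0609). The summed potassium channel level was between 590 and 663 in Sham and between 540 and 559 in CPIP, so that the groups did not overlap, although no gene of the list was called. TRP, Piezo, ASIC and HCN channels also had 0 calls among 17, with 1 higher and 3 lower at an unadjusted p under 0.05 and a median of -0.11. Among them, Trpv1, the capsaicin receptor, had 35.6, 34.4 and 31.6 against 27.0, 24.7 and 30.2 (-0.31, limma adjusted p 0.231).

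In a list of 27 tested receptor genes for ATP, glutamate, GABA and other transmitters, 2 were called higher and 1 lower. Of the 27, 20 had a negative log2 fold change (median -0.09). The list does not hold every such receptor, and Chrna1, for example, was called outside it. At an unadjusted p under 0.05, 2 were higher and 8 lower. Gabra5, a GABA-A receptor subunit, was at 3.05, 3.73 and 3.20 FPKM in Sham and 9.44, 8.90 and 10.6 in CPIP (1.41, SE 0.11, limma adjusted p 0.00258). P2rx2, a subunit of ATP-gated channels, had 3.15, 3.01 and 3.15 against 4.73, 5.57 and 5.64 (0.69, limma adjusted p 0.0356), and Grik1, a kainate receptor subunit, had 37.0, 34.3 and 35.3 against 24.3, 27.4 and 25.5 (-0.46, limma adjusted p 0.0298). Both lost their call without any 1 of the 6 libraries, with limma adjusted p between 0.0699 and 0.154 for P2rx2 and between 0.0555 and 0.126 for Grik1. The serotonin receptor subunit Htr3b was at 92.7, 78.4 and 72.7 in Sham and 55.3, 56.6 and 56.7 in CPIP, which did not overlap (-0.52, limma adjusted p 0.0702). Opioid and cannabinoid genes had 0 calls in limma among 12, with 1 higher and 0 lower at an unadjusted p under 0.05. Of the neurotrophic factor receptors, Gfra1, the GDNF co-receptor, went from 52.1, 47.3 and 38.6 to 81.3, 84.6 and 83.9 (0.86, limma adjusted p 0.0193), and it was the only call among 9. Its limma adjusted p lay between 0.0895 and 0.103 without Sham replicate 2 or any 1 CPIP library. Among 11 neurotrophic ligands, Vgf, a secretory granule protein induced by neurotrophins, was called, with 15.4, 14.2 and 11.2 in Sham and 30.1, 37.0 and 38.6 in CPIP (1.35, SE 0.14, limma adjusted p 0.00984). It lay between 0.0549 and 0.0615 without Sham replicate 2, CPIP replicate 2 or CPIP replicate 3. Bdnf was at 6.16, 5.68 and 5.68 against 8.25, 8.20 and 9.25 (0.51, limma adjusted p 0.056).

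**Figure D3:**
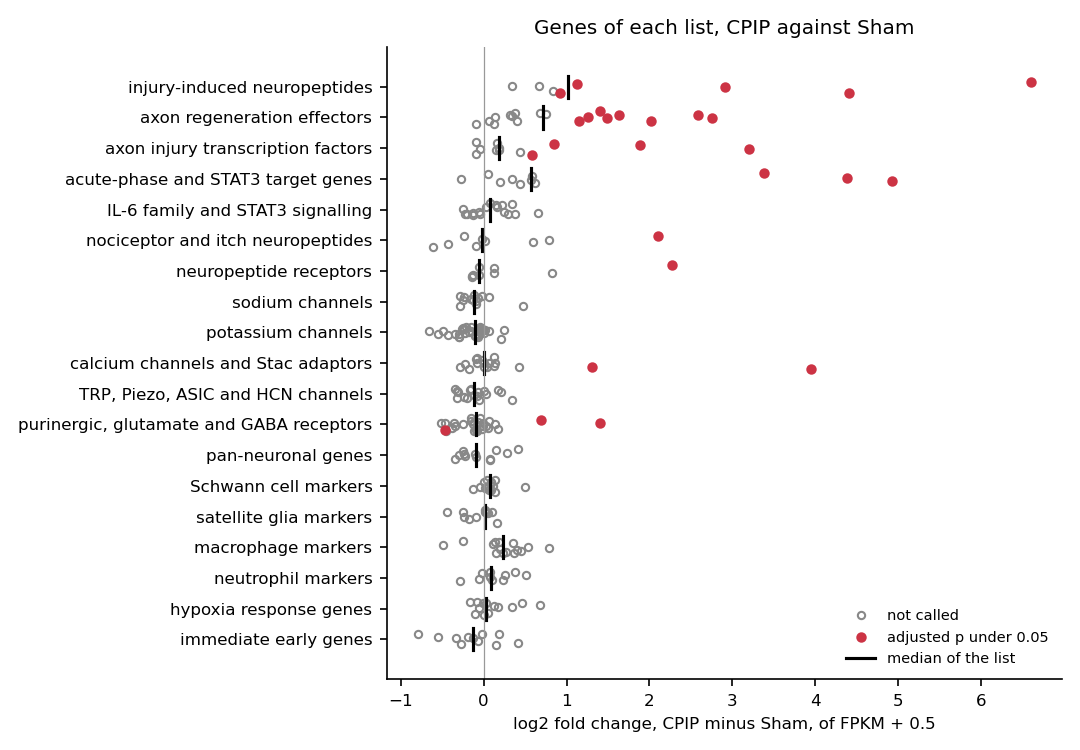
Log2 fold change between CPIP and Sham (x axis) of each tested gene in selected gene lists (y axis), with filled points for genes at an adjusted p under 0.05 and a bar at the median of each list. The medians of injury-induced neuropeptides, axon regeneration effectors and the acute-phase and STAT3 target list lie at 1.02, 0.71 and 0.57. Those of sodium and potassium channels lie at -0.12 and -0.10.

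The marker lists of cell types held few calls, with neuronal and glial markers far above those of spinal cord, which summed to between 7.38 and 10.5 FPKM in the 6 libraries. Pan-neuronal genes summed to between 10329 and 12558 FPKM in Sham and between 10537 and 11056 in CPIP, Schwann cell markers to 7882 to 12143 and 7484 to 12946, and satellite glia markers to 4312 to 4492 and 4488 to 4860. No marker of these 3 lists was called in limma, with 1 higher and 2 lower, 0 and 0, and 1 higher and 2 lower at an unadjusted p under 0.05. Macrophage markers summed to between 448 and 545 in Sham and between 527 and 836 in CPIP, and 13 of 15 had a positive log2 fold change (median 0.23). None of the 15 was called, with 4 higher and 0 lower at an unadjusted p under 0.05. Among these markers, Cd74, the MHC class II chaperone, was at 88.7, 75.2 and 84.7 in Sham and 101, 190 and 153 in CPIP, which did not overlap (0.79, limma adjusted p 0.222), and RT1-Da, a class II chain in the list of complement and MHC class II genes, was at 35.6, 35.5 and 33.5 against 46.0, 78.8 and 86.7 (0.95, limma adjusted p 0.152). In both, CPIP replicate 1 was the lowest CPIP library, and without it the limma adjusted p was 0.0466 for Cd74 and 0.00407 for RT1-Da. Neutrophil markers ranged from 62.5 to 199 in Sham and from 39.7 to 304 in CPIP, with 1 of 11 at 0 in all 6 libraries, and lymphocyte markers from 20.7 to 31.6 and from 22.1 to 30.4. Erythroid markers ranged from 1128 to 3486 in Sham and from 586 to 2193 in CPIP. Skeletal muscle markers were at 20.3, 14.2 and 10.6 in Sham and at 35.5, 169 and 8.47 in CPIP, so that CPIP replicate 2 stood apart. The median log2 fold change was 1.04 for the muscle markers, with 10 of 10 tested above 0, and -0.65 for the erythroid markers, with 0 of 9 above 0. Neither list held a call in limma, and at an unadjusted p under 0.05 there were 0 higher and 0 lower muscle markers and 0 higher and 1 lower erythroid markers. The summed levels of fibroblast, vascular, adipocyte and spinal cord markers overlapped between the groups, whereas a called gene of the fibroblast list and one of the adipocyte list did not. Lum, a matrix proteoglycan of fibroblasts, was called lower with 119, 115 and 105 against 80.6, 83.4 and 81.1 (-0.47, limma adjusted p 0.0261), and Cidec, a lipid droplet protein, was called higher at 0.11, 0.04 and 0.07 against 0.52, 0.71 and 0.45 (limma adjusted p 0.0473). Lum had a limma adjusted p between 0.0677 and 0.136 without any 1 library other than Sham replicate 3, and Cidec of at least 0.0964 without any 1 of the 6.

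**Figure D4:**
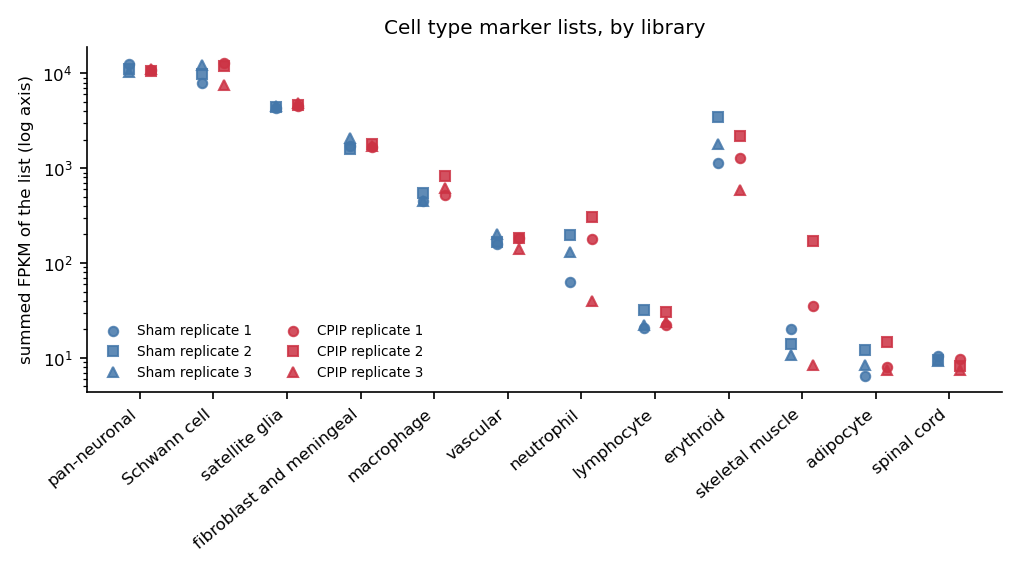
Summed FPKM of each cell type marker list (y axis, log scale) in each Sham and CPIP library, with a symbol for each replicate number. The Sham and CPIP points overlap for neuronal and Schwann cell markers, and CPIP replicate 2 lies highest for macrophage markers (836) and skeletal muscle markers (169).

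Inflammatory and stress genes gave scattered calls. Il13ra1, a receptor chain for IL-13, was the only call among 17 interleukin and TNF family genes, at 14.4, 12.6 and 12.4 FPKM in Sham and 19.7, 20.6 and 23.5 in CPIP (0.68, limma adjusted p 0.0268, between 0.0504 and 0.128 without any 1 library). The interleukin Il24, outside that list and chosen after its values were seen, was at 0.14, 0.15 and 0.11 in Sham and 0.86, 0.72 and 0.79 in CPIP (1.03, limma adjusted p 0.0113). Its limma adjusted p was between 0.0542 and 0.063 without any 1 library other than CPIP replicate 2. Chemokines had 0 calls in limma among 23, with 3 higher and 2 lower at an unadjusted p under 0.05. The monocyte chemokine Ccl2 was at 15.1, 25.0 and 22.3 against 31.0, 31.6 and 33.0, which did not overlap (0.63, limma adjusted p 0.219). The lists of 18 interferon-stimulated genes, 14 complement and MHC class II genes and 11 immediate early genes, which did not include Jun and Atf3, had 0 calls in limma, with 1, 4 and 1 higher and 0, 0 and 1 lower at an unadjusted p under 0.05. Their medians were 0.21, 0.20 and -0.13. Ifitm3, an interferon-induced gene outside these lists and chosen after its values were seen, was at 73.5, 72.2 and 77.8 in Sham and 95.6, 99 and 104 in CPIP (0.42, limma adjusted p 0.0307), with a limma adjusted p between 0.0674 and 0.156 without any 1 library. Cdkn1a, the cell cycle inhibitor p21 that p53 induces, rose from 3.67, 3.63 and 3.95 to 8.69, 11.5 and 10.0 (1.31, SE 0.11, limma adjusted p 0.00402) and was the only call among 14 stress and apoptosis genes. Srxn1, sulfiredoxin, an antioxidant enzyme, was the only call among 15 oxidative stress genes, with 31.7, 32.1 and 30.7 against 43.7, 43.6 and 45.9 (0.49, limma adjusted p 0.00958). Its limma adjusted p was 0.0574 without Sham replicate 2 and 0.0554 without CPIP replicate 1. Cell division, clock and glucocorticoid target genes had 0 calls in limma among 12, 15 and 10, with 1, 0 and 0 higher and 1, 1 and 1 lower at an unadjusted p under 0.05. The 13 hypoxia response genes had 0 calls in limma, 4 higher and 1 lower at an unadjusted p under 0.05, and a median of 0.03. Pgk1, a glycolytic enzyme, was at 176, 172 and 173 in Sham and 225, 202 and 236 in CPIP, which did not overlap (0.35, limma adjusted p 0.11). Of the matrix and protease genes, 2 of 18 were called. Mmp3, stromelysin, went from 0, 0.07 and 0.03 to 1, 1.04 and 1.31 (1.60, SE 0.13, limma adjusted p 0.00321), and Mmp16, a membrane metalloproteinase, from 1.95, 1.73 and 1.76 to 3.55, 3.62 and 3.55 (0.82, limma adjusted p 0.0154, between 0.0516 and 0.0848 without any 1 library). Over all lists, 37 of 552 listed genes tested were called, against 0.657% of all genes tested. The lists were chosen with earlier results of these data known, so that a higher share in them was favoured by that choice. Of the 41 lists, 24 held 0 calls in limma among 337 genes, with 30 higher and 28 lower at an unadjusted p under 0.05.

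The remaining 76 calls were in none of the lists. Crisp1, a cysteine-rich secretory protein that RefSeq names Crisp3, was at 0.12, 0.12 and 0.08 FPKM in Sham and 2.90, 3.76 and 4.28 in CPIP (2.76, SE 0.15, limma adjusted p 0.000492). Pde6b, a phosphodiesterase subunit of rod photoreceptors, rose from 0.22, 0.15 and 0.23 to 2.71, 2.43 and 3.07 (2.21, SE 0.12, limma adjusted p 0.000533). Tgm1, the transglutaminase of keratinocytes, rose by 2.26, Ankrd1, an ankyrin repeat protein of heart and muscle, by 2.13, and Cldn4, a tight junction protein, by 1.99, with limma adjusted p of 0.000926, 0.00271 and 0.0077. Ankrd1 was at 0.03, 0.27 and 0.07 in Sham and at 2.14, 2.09 and 2.38 in CPIP. Ptprh, a receptor tyrosine phosphatase, rose by 2.30 (limma adjusted p 0.00942) and lay between 0.0541 and 0.0574 without any 1 Sham library. In all, 13 called genes, all higher, had a Sham mean under 0.1 FPKM. These low genes passed the filter through the CPIP and CPIP+EA libraries, so that their count says nothing about low genes at large. They include the list members Sprr1a, Hamp, Ucn, Mmp3 and Cidec, whose part in the list counts was favoured by the filter. Further genes, chosen after their values were seen, were Reg3a, a relative of Reg3b (0.96, 0.78 and 0.55 against 4.26, 4.48 and 3.83), the epithelial cytokine Tslp (1.14, 1.31 and 0.80 against 4.18, 4.86 and 3.94), and Tph2, the serotonin-synthesizing enzyme of neurons (3.07, 2.96 and 2.65 against 6.53, 6.43 and 7.90). Their limma adjusted p was 0.00271, 0.00681 and 0.00767.

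Only 18 genes were called lower, and 12 of them differed at least 1.5-fold. Krt28, a keratin of the hair follicle, was at 6.09, 6.44 and 6.41 FPKM in Sham and 3.84, 3.22 and 3.56 in CPIP (-0.76, SE 0.09, limma adjusted p 0.0182). Dsp, desmoplakin, an anchor of cell junctions, had 2.29, 1.92 and 1.94 against 0.52, 0.81 and 0.39 (-1.26, SE 0.17, limma adjusted p 0.0261). Pla2g7, which breaks down platelet-activating factor, had 35.4, 38.1 and 31.4 against 22.04, 23 and 22.01 (-0.63, SE 0.08, limma adjusted p 0.0195). The axonal adhesion protein Cntn4, the salt cotransporter Slc12a3, Glb1l2 and Tmem54 fell by 0.71, 0.62, 0.67 and 0.73 on the log2 scale, with limma adjusted p between 0.0281 and 0.0416. LOC100360841, a ribosomal protein pseudogene in RefSeq, was at 0.75, 0.91 and 0.92 against 0, 0 and 0.17, and reads of the parent gene could be split with it. Apart from Rnf113a1, each of the 18 lost its call without at least 1 library. Krt28, Glb1l2, Cntn4, Slc12a3 and Tmem54 did so without any 1 of the 6, Dsp in all but the fit without CPIP replicate 2 (0.0274), Pla2g7 in all but that without Sham replicate 3 (0.0203), and LOC100360841 in all but that without CPIP replicate 3 (0.0183).

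The only gene lower at the threshold of the study was Rnf113a1, and another gene was its mirror image. Rnf113a1, a zinc finger protein of the spliceosome, was at 4.47, 3.75 and 4.77 FPKM in the Sham libraries and listed at 0 in all CPIP libraries (limma adjusted p 0.000123). LOC108348079, the gene with the smallest p in the comparison, ran the other way, with 0.01, 0.06 and 0.03 in Sham and 4.82, 4.72 and 4.26 in CPIP (3.26, SE 0.11, limma adjusted p 0.000123). With all 9 libraries in the fit, which adds the spread among the CPIP+EA libraries, the limma adjusted p was 0.13 for Rnf113a1 and 0.0731 for LOC108348079. Each library held one of the pair and little or none of the other. Their sum was 4.48, 3.81 and 4.80 in Sham and 4.82, 4.72 and 4.26 in CPIP, a log2 fold change of 0.07 (SE 0.11) with a limma adjusted p of 0.897. With the sum in place of both genes, a choice made after the values were seen, 38 genes passed the threshold of the study and 0 of them were lower. In the CPIP+EA libraries, which were not compared, Rnf113a1 was at 0, 0 and 4.79 and LOC108348079 at 3.36, 3.75 and 0.03. Whether the authors' counting assigned the same reads to one or the other gene was not tested.

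**Figure D5:**
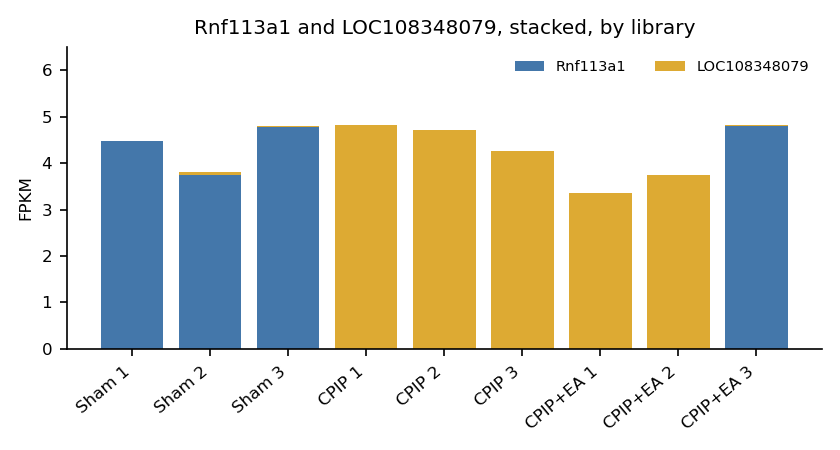
FPKM of Rnf113a1 and LOC108348079 (y axis, stacked bars) in each of the 9 libraries. A library held either one or the other gene, and the stacked height stays between 3.36 and 4.82 throughout.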

How the data were processed

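RNA was extracted from ipsilateral L4-6 DRGs at day 10, and mRNA libraries of 3 Sham, 3 CPIP and 3 CPIP+EA rats were sequenced. Reads were cleaned with SOAPnuke by the authors, who deposited FPKM per gene and library, rounded to 2 decimals. The aligner, genome build and annotation are not given in the sources used here. The deposited table also holds the authors' own comparisons of pairs of groups (log2 ratio, P-value and Q-value), which were not used, and 0 other columns of per-sample values. Low values were not whole multiples of 1 read (17.2% of ratios within 0.05 of a whole number), so read counts per gene were not recovered, and no counting error was computed.

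Groups came from the sample titles and treatment labels. After a filter on the mean of all 9 libraries (0.1 FPKM or more), values were transformed to log2(FPKM + 0.5) and compared in R 4.3.3 with limma 3.58.1 (eBayes with a trend, two-sided, Benjamini-Hochberg over all 17187 genes), with the 6 Sham and CPIP libraries and no covariate. The fit was tested on simulated data. Genes were described in 41 lists by their calls and medians, without a set test. The members and lists were chosen with earlier results of these data known. Named genes are the 6 markers of the comparison (Npy, Vip, Gal, Atf3, Serpina3n and Csf1), up to 20 genes higher and 10 lower with the largest change among called genes without overlap, called members of a list, and the 4 members of each list with the highest mean. A few values that this rule covers are not reported here. Any other gene is marked in the text as picked with its values in view. RefSeq (GRCr8) gave names for 111 of the 113 called genes, matched by gene identifier, and promoter sequences. The 17 alternatives changed the pseudocount, filter, scaling, trend, block or libraries. Tables and figures were made with Python 3.11.15, numpy 2.4.6, pandas 2.3.3, scipy 1.17.1 and matplotlib 3.10.9.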

Additional observations from a re-analysis of the deposited data

Results flagged for a closer look

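The 3 CPIP+EA libraries lie outside the comparison, and the mean of the marker genes over them was above the highest Sham library too. The marker genes were all called higher in CPIP against these same Sham libraries, so that low Sham values were favoured in advance. Their mean FPKM over the CPIP+EA libraries (SD, n = 3) was 405 ± 8.66 for Npy, 18.1 ± 3.22 for Vip, 58.7 ± 5.25 for Gal, 68.4 ± 9.58 for Atf3, 33.5 ± 6.98 for Serpina3n and 12.6 ± 0.530 for Csf1. The highest Sham library was at 7.09, 0.24, 5.40, 6.86, 1.61 and 6.46 FPKM in the same order. The Sham libraries are those of the CPIP comparison, and the difference between CPIP+EA and Sham was not tested.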

How the results depend on the processing

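The count past the threshold of the study, 42, was 16 without a filter, where more genes were tested, and 18 to 24 with 1 library left out, with the lowest without Sham replicate 2 or CPIP replicate 3. The count at an adjusted p under 0.05, 113, was 45 to 60 with 1 library left out, and the count of listed genes, 37, was 23 to 29, each lowest without Sham replicate 2. These fits rest on fewer samples. With the replicate number as a block, the 3 counts were 8, 40 and 24. The correlation of deviations of same-numbered Sham and CPIP libraries was -0.0964, 0.159 and 0.006, and 1 of 3 Sham libraries correlated best with its own number. The labels do not say whether a number marks a shared batch, and so few values cannot decide it. In the other alternatives the counts were within 1.5 times of those given, and no called gene of those named by rule changed direction. Of these 54 genes, 26 had an adjusted p under 0.05 under all 17 alternatives, and Mmp3 had one under the 16 in which it was tested. The size of the change of genes near 0 in Sham was set by the pseudocount: with 0.1 and with 1 FPKM in place of 0.5, the log2 fold change was 4.70 and 1.98 for Sprr1a, 6.30 and 3.51 for Hamp, 3.65 and 1.47 for Ucn, and 3.21 and 1.03 for Mmp3. Quantile normalization turned the medians of satellite glia markers and hypoxia genes to -0.02 and -0.01. No read counts per gene were at hand, so the counting error of low genes was not computed.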
